A study of Mus musculus with 16 samples.

Results

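The data cover 10 genes of the endoplasmic reticulum (ER) folding machinery and the unfolded protein response (UPR), namely Hspa5, Hsp90b1, Dnajb9, Sdf2l1, Herpud1, Xbp1, Edem1, Pdia4, Creld2 and Calr, in RNA-seq counts of mIMCD3 cells. They were chosen by gene symbol, and all 10 were found among the 55367 genes of the count tables and passed the filter on low counts that left 19509 genes for testing. mIMCD3 is a cell line of the mouse inner medullary collecting duct, the kidney segment that is exposed to the highest and most variable osmolality of the body. The 16 libraries formed 8 groups of 2. WT cells were held for 5 h in DMSO, the vehicle, or in 10 µM sulforaphane (SFN), an activator of the transcription factor Nrf2. They then stayed in isosmotic medium or met hyperosmotic medium for 1 h (600 mOsm by the labels) or for 6 h. Each pretreatment had 1 isosmotic group, with no separate ones for 1 h and 6 h. Changes with stress and changes with time after the pretreatment thus cannot be told apart. Nrf2-/- mIMCD3 cells, made with CRISPR/Cas9, received SFN and were sampled in isosmotic medium or after 1 h of hyperosmotic stress. Whether the Nrf2-/- line descends from 1 clone is not given in the sources used here, and Nrf2-/- cells without SFN or at 6 h were not analysed here, so genotype and the history of the line cannot be told apart.

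The ER folds secreted and membrane proteins. BiP, encoded by Hspa5, and GRP94, encoded by Hsp90b1, bind unfolded chains in its lumen, calreticulin holds calcium and nascent glycoproteins, and disulfide isomerases such as Pdia4 set their disulfide bonds. When unfolded protein accumulates, the sensors IRE1 (Ern1), PERK (Eif2ak3) and ATF6 (Atf6) act: IRE1 splices Xbp1 mRNA into the form that encodes an active transcription factor, ATF6 is cut to release another, and PERK slows translation and favours ATF4. Their targets include chaperones and the proteins of ER-associated degradation (ERAD), among them Herpud1 and Edem1. Cells of the renal medulla meet large changes of tonicity, which disturb protein folding.

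Genes that share this response are known for a common promoter element, so the promoters were read from RefSeq for the 10 genes (GRCm38.p6, 250 bases before to 50 after the annotated start; all 10 matched). The letters of 4 elements were searched on both strands: the ER stress element ERSE (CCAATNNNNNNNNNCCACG), its shorter form ERSE-II, the core of the UPR element (TGACGTGG) and the cyclic AMP response core TGACGT, whose letters lie within those of the UPR element core. ERSE was found in 4 of the 10 promoters, Hspa5, Hsp90b1, Calr and Creld2, against 0.119% of 32851 promoters. ERSE-II was found in 1, Herpud1, against 0.0365%, and TGACGT in 1, Hspa5, against 7.51%. The UPR element core, held by 0.676% of promoters, was in 0 of the 10, and Dnajb9, Sdf2l1, Xbp1, Edem1 and Pdia4 held none of the 4 in this window. A match is a description of letters only. Since genes of this response are already known for such elements, the shares beside them are no test of enrichment. The 5 promoters with an ERSE or ERSE-II are shown because they belong to genes whose counts responded in different ways, and those of Dnajb9 and Xbp1 because these genes changed most at 6 h. Capitals mark the matched letters.
Hspa5 (chr2:34771840-34772139, plus strand): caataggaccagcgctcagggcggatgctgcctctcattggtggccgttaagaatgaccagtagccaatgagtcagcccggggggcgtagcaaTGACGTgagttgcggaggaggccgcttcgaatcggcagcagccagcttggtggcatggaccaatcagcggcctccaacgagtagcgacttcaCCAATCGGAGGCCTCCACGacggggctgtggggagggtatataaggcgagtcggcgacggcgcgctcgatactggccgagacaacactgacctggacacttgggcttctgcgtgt
Hsp90b1 (chr10:86705395-86705694, minus strand): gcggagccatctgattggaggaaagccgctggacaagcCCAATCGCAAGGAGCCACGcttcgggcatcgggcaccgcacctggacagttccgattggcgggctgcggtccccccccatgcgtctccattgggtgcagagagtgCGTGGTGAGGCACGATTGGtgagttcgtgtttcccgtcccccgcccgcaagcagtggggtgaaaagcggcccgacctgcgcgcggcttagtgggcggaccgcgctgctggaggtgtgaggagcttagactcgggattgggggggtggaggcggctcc
Calr (chr8:84846882-84847181, minus strand): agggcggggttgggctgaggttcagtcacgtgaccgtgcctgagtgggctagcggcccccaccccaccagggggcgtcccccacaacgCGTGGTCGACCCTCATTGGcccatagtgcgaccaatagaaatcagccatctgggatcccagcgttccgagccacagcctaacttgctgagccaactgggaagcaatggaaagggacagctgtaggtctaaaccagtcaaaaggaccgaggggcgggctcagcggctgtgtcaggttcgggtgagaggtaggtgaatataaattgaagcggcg
Herpud1 (chr8:94386179-94386478, plus strand): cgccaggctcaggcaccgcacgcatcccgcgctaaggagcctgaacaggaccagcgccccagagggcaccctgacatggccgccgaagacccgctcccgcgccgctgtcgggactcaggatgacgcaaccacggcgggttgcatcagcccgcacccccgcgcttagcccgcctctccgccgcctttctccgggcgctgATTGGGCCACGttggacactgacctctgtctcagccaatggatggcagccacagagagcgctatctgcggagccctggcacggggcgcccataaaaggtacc
Creld2 (chr15:88819396-88819695, plus strand): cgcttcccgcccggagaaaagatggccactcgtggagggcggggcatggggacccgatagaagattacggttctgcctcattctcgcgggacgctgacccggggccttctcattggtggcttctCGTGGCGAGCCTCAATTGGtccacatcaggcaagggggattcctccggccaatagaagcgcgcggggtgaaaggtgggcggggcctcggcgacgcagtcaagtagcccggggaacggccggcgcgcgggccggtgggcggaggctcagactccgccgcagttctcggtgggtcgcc
Dnajb9 (chr12:44210019-44210318, minus strand): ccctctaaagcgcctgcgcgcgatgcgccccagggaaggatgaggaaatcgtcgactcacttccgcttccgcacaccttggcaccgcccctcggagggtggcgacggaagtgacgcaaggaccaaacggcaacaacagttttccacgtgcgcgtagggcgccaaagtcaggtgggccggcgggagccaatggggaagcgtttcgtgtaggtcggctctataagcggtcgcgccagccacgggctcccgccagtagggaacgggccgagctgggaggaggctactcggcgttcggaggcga
Xbp1 (chr11:5520391-5520690, plus strand): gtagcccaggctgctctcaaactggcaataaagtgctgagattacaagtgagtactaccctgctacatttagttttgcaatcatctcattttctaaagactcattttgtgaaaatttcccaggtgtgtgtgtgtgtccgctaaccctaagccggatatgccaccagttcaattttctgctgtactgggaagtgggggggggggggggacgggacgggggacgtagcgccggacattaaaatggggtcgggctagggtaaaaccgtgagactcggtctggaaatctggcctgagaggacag
Hsp90b1 held 2 ERSE matches, one on each strand, and the matches of Calr and Creld2 read on the reverse strand, as the letters CGTGG before ATTGG show.

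Facts of the whole series bear on the values as follows. Total counts per library ran from 34484296 to 50774875, and the 10 genes took 0.288 to 0.371% of them. In the values given here, except those of the cell type markers, CPM are counts scaled to library depth after TMM normalisation. The TMM factors were 0.903 to 0.911 in the 4 libraries at 6 h and 0.949 to 1.07 in the others. CPM of the cell type markers and their sums are on total counts alone, without these factors. The targeted gene, Nfe2l2, lay between 11.0 and 11.6 CPM in the 4 Nrf2-/- libraries and between 64.0 and 149 CPM in the 12 WT libraries. The 2 Nrf2-/- libraries at 1 h stood apart from each other: their biological coefficient of variation was 0.348, against 0.0395 to 0.128 in the other groups. Of 15 markers fixed for collecting duct and kidney epithelium, 12 had a median of at least 1 CPM, and Aqp2, Aqp3 and Aqp4 did not. Intercalated cell and endothelial markers did not reach it for any of 3 and 2 genes. Fibroblast (1 of 3), leukocyte (1 of 2) and proximal tubule (1 of 3) lists did for 1 gene each. The summed epithelial markers were higher at 6 h (4537 to 4571 CPM in DMSO, 4196 to 4416 in SFN) than in isosmotic medium (3127 to 3448 and 2332 to 2535 CPM); each of the other lists summed to at most 12.6 CPM, and the part of this in the results at 6 h was not tested. The study calls its replicates biological, but no source used here ties them to separate cultures or days, so p-values measure the spread between these libraries, which may be technical.

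Levels per length, in the WT DMSO isosmotic libraries, spanned the set. Calr stood highest at 330 CPM per kb of exon, followed by Hspa5 at 227 and Hsp90b1 at 153. Pdia4 (70.6), Creld2 (60.2) and Sdf2l1 (35.1) formed the middle. Xbp1 (19.3), Edem1 (12.4), Herpud1 (9.76) and Dnajb9 (4.69) were lowest on this per-length scale. No neighbours in this order overlapped between the 2 libraries of the group. Calcium-holding calreticulin and the main lumenal chaperones were thus the abundant members, while the regulator Xbp1 and the co-chaperone Dnajb9 were scarce.

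**Figure D1:**
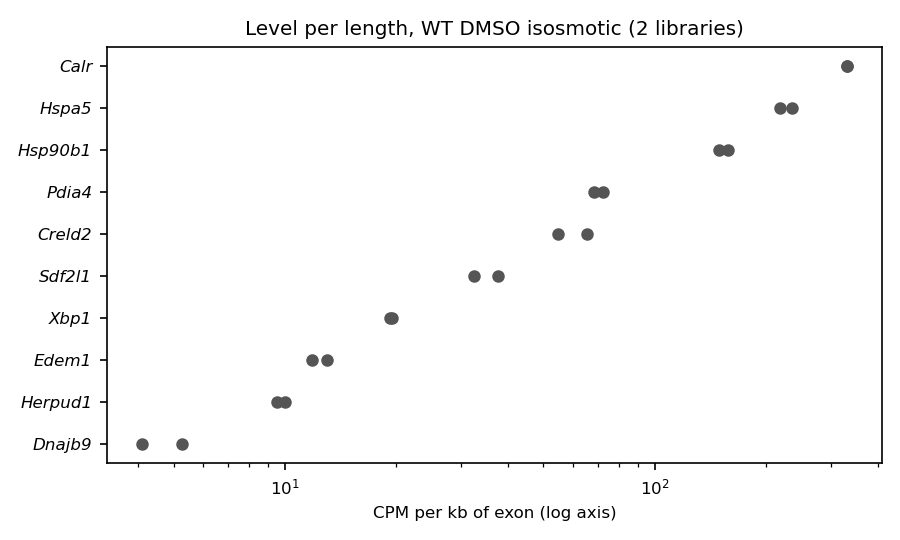
Points give the 2 WT DMSO isosmotic libraries; the horizontal log axis is CPM per kb of exon and the genes are ordered by their mean. Calr, at 330 CPM per kb, lies highest and Dnajb9, at 4.69, lowest.

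The genes differed in how far they moved. Dnajb9 ranged from 10.5 to 73.7 CPM over the 16 libraries, 7.03-fold, and Xbp1 from 16.1 to 90.3 CPM, 5.63-fold. Creld2 (3.56-fold) and Herpud1 (2.91-fold) followed. Edem1, Pdia4, Sdf2l1, Hsp90b1 and Calr ranged over 1.74 to 1.97-fold, and Hspa5, the most narrowly held, over 1.32-fold. The 10 genes did not vary as a block. Over the 12 WT libraries the Pearson r of log2 CPM was positive for 24 of the 45 pairs, with a median of 0.01 and a range from -0.98 to 0.94; these points share libraries and groups, so they describe the data only.

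**Figure D2:**
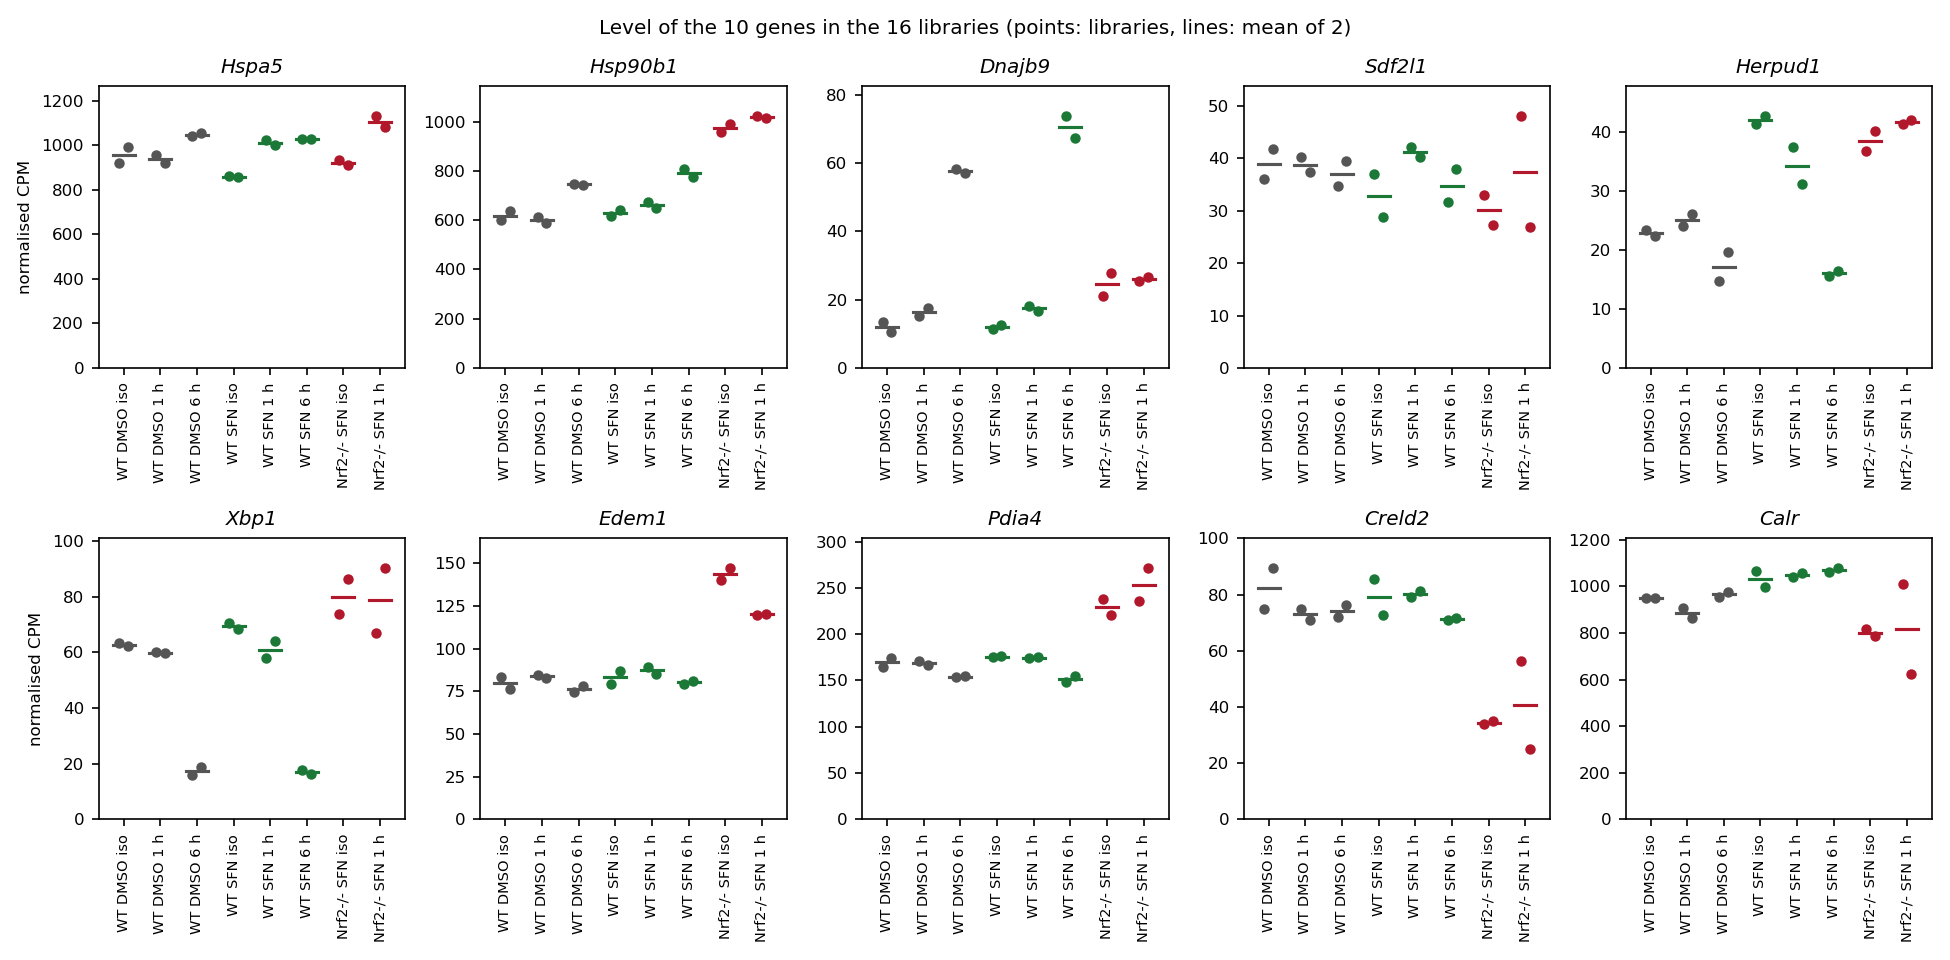
Each panel plots normalised CPM of 1 gene, from 0, in the 16 libraries by group (points) with the group mean (lines); grey is WT with DMSO, green WT with SFN and red Nrf2-/- with SFN. Dnajb9 stands out upward and Xbp1 downward at 6 h, and Creld2 is low and Edem1 and Hsp90b1 are high in Nrf2-/- cells.

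To see what an early hyperosmotic challenge did to these genes, 1 h was compared with isosmotic medium in DMSO-treated WT cells. The main chaperones stayed near their starting level. Hspa5 was 923 and 995 CPM before and 958 and 923 CPM after 1 h, and Hsp90b1 601 and 636 before and 613 and 587 after. Xbp1 was 63.2 and 62.4 CPM before and 59.9 and 59.6 after. Dnajb9, the BiP co-chaperone ERdj4, was 13.4 and 10.5 CPM before and 15.3 and 17.4 after, so its libraries did not overlap, and its log2 fold change was 0.45 (SE 0.15, adjusted p = 0.0715). By edgeR's quasi-likelihood test 0 of the 10 genes passed an adjusted p of 0.05, against 11.2% of all tested genes. An unadjusted p under 0.05 was reached by 1 gene, Dnajb9, beside 23.6% of all genes. Of all genes, 7.1% were called higher and 4.11% lower. Dnajb9 was called in 6 of 25 alternative fits: with DESeq2, with the 12 WT libraries, with the groups compared alone and without 1 or both Nrf2-/- libraries at 1 h. At 1 h with SFN, Dnajb9 rose from 11.5 and 12.6 CPM to 18.2 and 16.7 CPM (log2 fold change 0.53, SE 0.15, adjusted p = 0.0388), the only call among the 10 against 9.52% of all genes (5.94% higher and 3.58% lower). Hspa5 was 862 and 859 CPM before and 1023 and 1002 CPM after 1 h with SFN, without overlap (log2 fold change 0.23, SE 0.08, adjusted p = 0.101). The call for Dnajb9 rests on little: it held in 12 of 25 alternative fits, and leaving out any 1 of the 10 WT libraries other than the DMSO isosmotic ones ended it, with log2 values from 0.46 to 0.60. Total-count scaling ended it too (log2 0.50, adjusted p = 0.057). Whether the change at 1 h differed between SFN and DMSO was tested by an interaction. It called 0 of the 10 genes by edgeR and 0 by DESeq2 (0.559% of all genes by edgeR, 0.487% higher and 0.0718% lower). Of the 10, 2 were under an unadjusted 0.05 by edgeR, Hspa5 and Herpud1, beside 7.62% of all genes.

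At 6 h the set split. Dnajb9 rose and Xbp1 fell by several fold, whether the cells had received DMSO or SFN; Hsp90b1 rose slightly, Herpud1 fell, and most other members stayed close to their isosmotic level. Dnajb9 in DMSO went from 13.4 and 10.5 CPM to 58.1 and 57.1 CPM, and every library at 6 h lay above every isosmotic one. Its level was 4.82-fold higher (log2 fold change 2.27, SE 0.15, adjusted p = 4.96e-08). In SFN-treated cells Dnajb9 was 11.5 and 12.6 CPM in isosmotic medium and 73.7 and 67.4 CPM at 6 h, 5.85-fold higher (log2 2.55, SE 0.16, adjusted p = 1.5e-08). Most of this difference lay between 1 h and 6 h, where the log2 change was 1.82 in DMSO (adjusted p = 3.44e-07) and 2.02 in SFN (adjusted p = 1.26e-07).

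Xbp1, whose spliced mRNA encodes the transcription factor of the IRE1 branch, moved the other way. It was 63.2 and 62.4 CPM in DMSO isosmotic medium and 16.1 and 18.9 CPM at 6 h, 3.6-fold lower (log2 fold change -1.85, SE 0.14, adjusted p = 1.5e-07). With SFN it was 70.5 and 68.2 CPM before and 17.7 and 16.2 CPM at 6 h, 4.08-fold lower (log2 -2.03, SE 0.14, adjusted p = 5.44e-08). No library at 6 h reached an isosmotic or 1 h library, and the log2 change from 1 h to 6 h was -1.78 in DMSO and -1.84 in SFN. Gene-level counts do not separate spliced from unspliced Xbp1 mRNA, so these values cover their sum. In the DMSO comparison 2195 of the 4671 genes called higher rose at least as much as Dnajb9, and 395 of the 4293 called lower fell at least as much as Xbp1.

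Herpud1, a membrane protein of the ERAD complex, fell from 23.3 and 22.2 CPM to 14.6 and 19.6 CPM in DMSO (log2 fold change -0.41, SE 0.14, adjusted p = 0.0248). In SFN it fell further, from 41.3 and 42.6 CPM to 15.5 and 16.5 CPM (log2 -1.39, SE 0.14, adjusted p = 1.89e-06). The DMSO call ended when either isosmotic library or replicate 1 at 6 h was left out, with log2 values between -0.64 and -0.22 over the fits with a library left out, and with RLE size factors, DESeq2 or a minimum of 10 counts in every library; the SFN call held in 25 of 25 alternatives. The difference between the SFN and DMSO changes was -0.98 on the log2 scale (SE 0.20, adjusted p = 0.0298), the only called interaction among the 10 genes, against 0.759% of all genes (0.595% higher and 0.164% lower). It held in 16 of 25 alternatives, with values from -1.18 to -0.76 over the alternatives and adjusted p up to 0.214. The fits that lost it left out a DMSO library (either isosmotic, either at 1 h, or replicate 2 at 6 h) or an SFN library (either isosmotic or either at 6 h).

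The abundant lumenal chaperones changed little at 6 h. Hsp90b1 was 601 and 636 CPM before and 748 and 744 CPM at 6 h in DMSO (log2 fold change 0.27, SE 0.08, adjusted p = 0.0164), and 615 and 640 before and 808 and 775 CPM at 6 h in SFN (log2 0.34, adjusted p = 0.00436). Hspa5 rose in SFN from 862 and 859 to 1031 and 1031 CPM (log2 0.26, adjusted p = 0.0193). In DMSO it was 923 and 995 CPM before and 1041 and 1058 CPM after (log2 0.13, adjusted p = 0.229). These small rises depend on the scaling: on total counts alone Hsp90b1 changed by 0.08 in DMSO (adjusted p = 0.432) and 0.10 in SFN (adjusted p = 0.337), and Hspa5 by -0.06 in DMSO and 0.03 in SFN (adjusted p = 0.830). Leaving out 1 DMSO library, isosmotic replicate 1 or either at 6 h, also ended the Hsp90b1 call in DMSO, with log2 values of 0.22 to 0.27. Leaving out any of the 4 SFN libraries compared ended that of Hspa5 (0.25 each time), and SFN isosmotic or 6 h replicate 1 that of Hsp90b1 in SFN (0.29 and 0.30). With no filter on low counts Hspa5 in SFN (0.23, adjusted p = 0.101) and Hsp90b1 in DMSO (0.26, adjusted p = 0.0708) were not called. The pretreatments shared 4 called genes in the same direction, Hsp90b1, Dnajb9, Herpud1 and Xbp1, out of 4 called in DMSO and 5 in SFN.

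In total 4 of the 10 genes were called in DMSO at 6 h, 2 higher and 2 lower, against 45.9% of all genes (23.9% higher and 22% lower). In SFN 5 were called, 3 higher and 2 lower, against 47.6% (24.7% and 22.9%). The genes were thus called about as often as others. Their median log2 change was -0.06 in DMSO, beside 0.05 for all tested genes, and -0.0011 in SFN beside 0.09. Comparing 6 h with 1 h, 4 were called in DMSO (42.4% of all genes, 20.4% higher and 22% lower) and 4 in SFN (42.6%, 20.9% and 21.7%), Hsp90b1 and Dnajb9 higher and Herpud1 and Xbp1 lower each time. The call for Hsp90b1 between 1 h and 6 h (0.32 in DMSO, 0.26 in SFN) ended on total counts (0.0936 and 0.0585). It also ended in DMSO without 1 h replicate 2 or 6 h replicate 1 (0.28 and 0.31), in SFN without any 1 of the 4 libraries compared (0.22 to 0.28), and in SFN with no filter on low counts (0.24, adjusted p = 0.103). That for Herpud1 in DMSO ended without 6 h replicate 1 (-0.36, adjusted p = 0.099). Total-count scaling moved the median of all genes at 6 h by -0.19 in DMSO and -0.24 in SFN, and the share of higher among all called genes from 52.1 to 41% in DMSO and from 51.9 to 39% in SFN.

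The remaining members gave no call at 6 h by the test. Edem1, which delivers misfolded glycoproteins to ERAD, was 83.7 and 76.2 CPM before and 74.9 and 78.3 CPM at 6 h in DMSO (log2 -0.06, adjusted p = 0.618). Pdia4 was 165 and 174 CPM before and 153 and 155 CPM at 6 h in DMSO (log2 -0.14, adjusted p = 0.248), and 175 and 176 before and 149 and 155 CPM in SFN (log2 -0.21, adjusted p = 0.0695). With total-count scaling Pdia4 and Edem1 were called lower at 6 h, at -0.32 and -0.25 in DMSO and -0.45 and -0.29 in SFN. Calr was 951 and 950 CPM before and 954 and 976 CPM after (log2 0.02, SE 0.15) in DMSO. Creld2, an ER protein with EGF-like domains, was 74.8 and 89.5 CPM before and 72.1 and 76.3 CPM after. Sdf2l1, a lumenal partner of the co-chaperone ERdj3, was 36.0 and 41.7 CPM before and 34.7 and 39.5 CPM after. The groups of Creld2 and Sdf2l1 overlapped, and their wide standard errors (0.24 and 0.21) leave changes of that size undetectable by this fit. Each standard error draws on 1 estimate of spread per gene over all 16 libraries, not on the WT libraries compared alone. These include the 2 Nrf2-/- libraries at 1 h. They were at 56.4 and 25.2 CPM for Creld2, 48.0 and 26.9 for Sdf2l1, and 1008 and 622 for Calr.

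**Figure D3:**
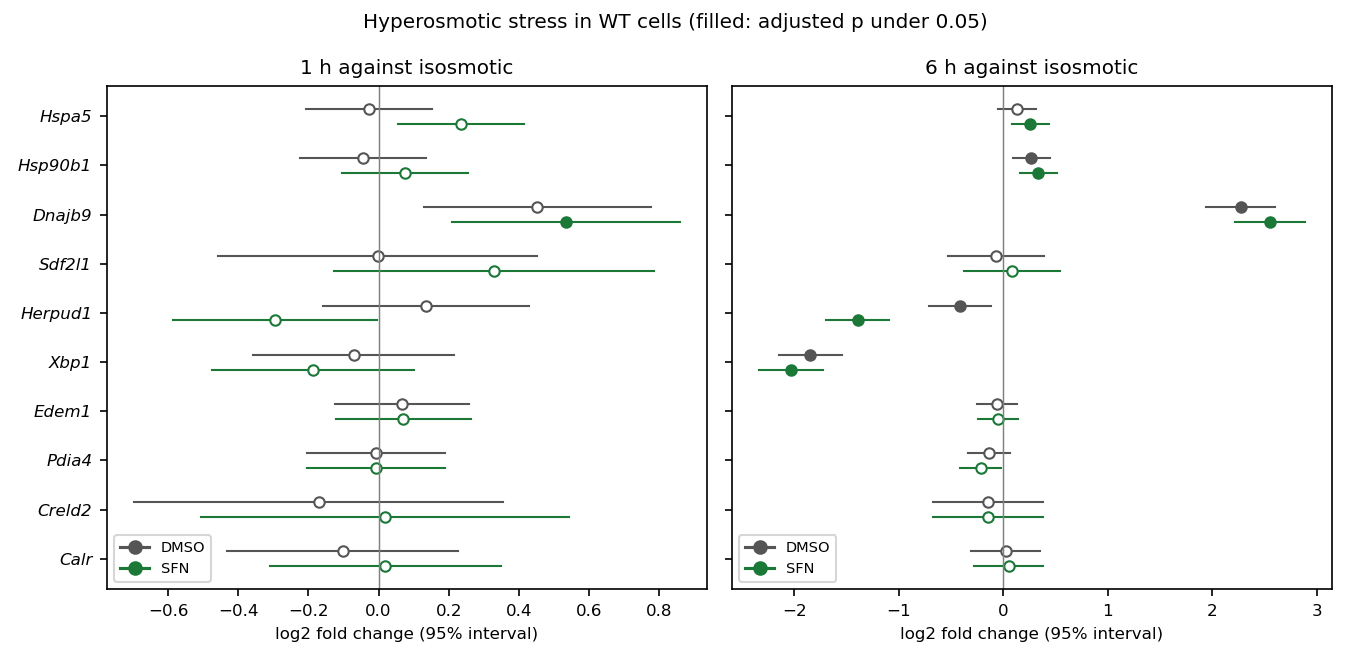
Points give the log2 fold change of each gene after 1 h (left) and 6 h (right) of hyperosmotic stress in WT cells with DMSO (grey) or SFN (green), bars the 95% interval, and filled points an adjusted p under 0.05. The scale of the left panel is narrower; at 6 h Dnajb9 lies at 2.27 and 2.55 and Xbp1 at -1.85 and -2.03.

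SFN by itself changed 1 of the 10 genes. In isosmotic medium Herpud1 was 23.3 and 22.2 CPM with DMSO and 41.3 and 42.6 CPM with SFN, with a clear gap between the groups. This was 1.84-fold higher (log2 fold change 0.88, SE 0.14, adjusted p = 0.00208), and it held in 25 of 25 alternatives. The background was 2.84% of all genes, 1.09% higher and 1.76% lower. Hspa5 was 923 and 995 CPM with DMSO and 862 and 859 CPM with SFN, lower without overlap (log2 -0.16, adjusted p = 0.399). The other 8 genes had log2 differences between -0.24 and 0.14. At 1 h 0 of the 10 genes were called (0.0923% of all genes), with Herpud1 at 24.0 and 26.1 CPM with DMSO and 37.3 and 31.1 CPM with SFN (log2 0.45, SE 0.14, unadjusted p = 0.00537, adjusted p = 0.977). DESeq2 also called 0. A fit of the 4 libraries compared alone called 4 genes at 1 h, all higher with SFN, Herpud1 (0.45), Calr (0.24), Hsp90b1 (0.14) and Hspa5 (0.10), against 3.04% of the 16350 genes of that fit called higher and 1.91% lower. At 6 h 0 were called (0.041% of all genes), 0 had an unadjusted p under 0.05 (3.68% of all genes) and DESeq2 called 0. Herpud1 was then 14.6 and 19.6 CPM with DMSO and 15.5 and 16.5 CPM with SFN, overlapping (95% interval of the log2 difference -0.40 to 0.20). Dnajb9 at 6 h was 58.1 and 57.1 CPM with DMSO and 73.7 and 67.4 CPM with SFN, higher without overlap (log2 0.29, adjusted p = 1).

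Nrf2-/- cells differed from WT cells in 5 of the 10 genes, and in the same 5, in the same directions, in isosmotic medium and at 1 h, all with SFN. Hsp90b1, Dnajb9, Edem1 and Pdia4 were higher and Creld2 was lower in Nrf2-/- cells. The background was 34.1% of all genes in isosmotic medium (15.7% higher, 18.4% lower) and 31.5% at 1 h (15.3% and 16.2%), so a call alone sets these genes little apart. Hsp90b1 in isosmotic medium was 615 and 640 CPM in WT cells and 958 and 989 CPM in Nrf2-/- cells (log2 fold change 0.63, SE 0.08, adjusted p = 3.6e-05). Edem1 was 79.4 and 87.1 CPM in WT and 140 and 147 CPM in Nrf2-/- cells (log2 0.79, SE 0.09, adjusted p = 8e-06), above every WT library of the series.

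Dnajb9 was 11.5 and 12.6 CPM in WT and 21.0 and 27.9 CPM in Nrf2-/- cells, 2.03-fold higher (log2 1.02, SE 0.15, adjusted p = 0.000101). Pdia4 was 175 and 176 CPM in WT and 238 and 221 CPM in Nrf2-/- cells (log2 0.38, SE 0.09, adjusted p = 0.00471), a call that ended without Nrf2-/- isosmotic replicate 1 (log2 0.32, adjusted p = 0.0559). Creld2 went the other way, with 85.4 and 72.8 CPM in WT and 34.0 and 34.8 CPM in Nrf2-/- cells, 2.30-fold lower (log2 -1.20, SE 0.25, adjusted p = 0.00201). Calr was 1067 and 998 CPM in WT and 817 and 785 CPM in Nrf2-/- cells (log2 -0.37, adjusted p = 0.0819), and it was called lower in 5 of 24 alternatives, among them the fits without either Nrf2-/- library at 1 h. Herpud1, the gene that SFN raised, was 41.3 and 42.6 CPM in WT and 36.8 and 40.0 CPM in Nrf2-/- cells with SFN (log2 -0.13, 95% interval -0.42 to 0.16). Hspa5 was 862 and 859 CPM in WT and 934 and 911 CPM in Nrf2-/- cells (log2 0.10, adjusted p = 0.391), and Xbp1 70.5 and 68.2 against 73.6 and 86.1 CPM (log2 0.20, adjusted p = 0.27).

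At 1 h the log2 differences between Nrf2-/- and WT cells were 0.62 for Hsp90b1, 0.58 for Dnajb9, 0.46 for Edem1, 0.54 for Pdia4 and -0.97 for Creld2 (adjusted p from 4.8e-05 to 0.00847). The call for Dnajb9 ended without WT SFN replicate 2 at 1 h (0.51, adjusted p = 0.0885). The 2 Nrf2-/- libraries at 1 h disagreed on 3 genes: Creld2 was 56.4 and 25.2 CPM, Calr 1008 and 622 CPM, and Sdf2l1 48.0 and 26.9 CPM. In WT cells at 1 h with SFN these genes were at 79.0 and 81.3, 1038 and 1055, and 42.2 and 40.2 CPM, so the libraries of Sdf2l1 overlapped. Leaving out replicate 1 raised the number of called members at 1 h from 5 to 8, while the number over all genes went from 6154 to 8917. A fit of the 4 libraries compared alone called 0 of the 10, against 4.6% of its genes higher and 5.49% lower. The differences in that fit were of like size, 0.63 for Hsp90b1, 0.58 for Dnajb9, 0.46 for Edem1, 0.54 for Pdia4 and -0.97 for Creld2, with adjusted p from 0.0851 to 0.193. After 1 h of stress within Nrf2-/- cells 0 of the 10 genes were called (7.17% of all genes, 4.36% higher and 2.81% lower). An unadjusted p under 0.05 was reached by 2 of them, Hspa5 and Edem1, beside 20.4% of all genes. DESeq2 called 1, Hspa5, beside 3.37% of all genes higher and 1.94% lower. Leaving out either Nrf2-/- library at 1 h gave 5 called members each, while over all genes 5079 and 4554 were called instead of 1399, and Creld2 and Calr then changed in opposite directions, at -0.46 and -0.37 without replicate 1 and at 0.71 and 0.33 without replicate 2. The interaction of genotype and stress called 0 of the 10 by edgeR and 0 by DESeq2 (0.123% of all genes by edgeR, 0.0615% in each direction). By edgeR 1 gene, Edem1, was under an unadjusted 0.05, beside 7.35% of all genes.

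**Figure D4:**
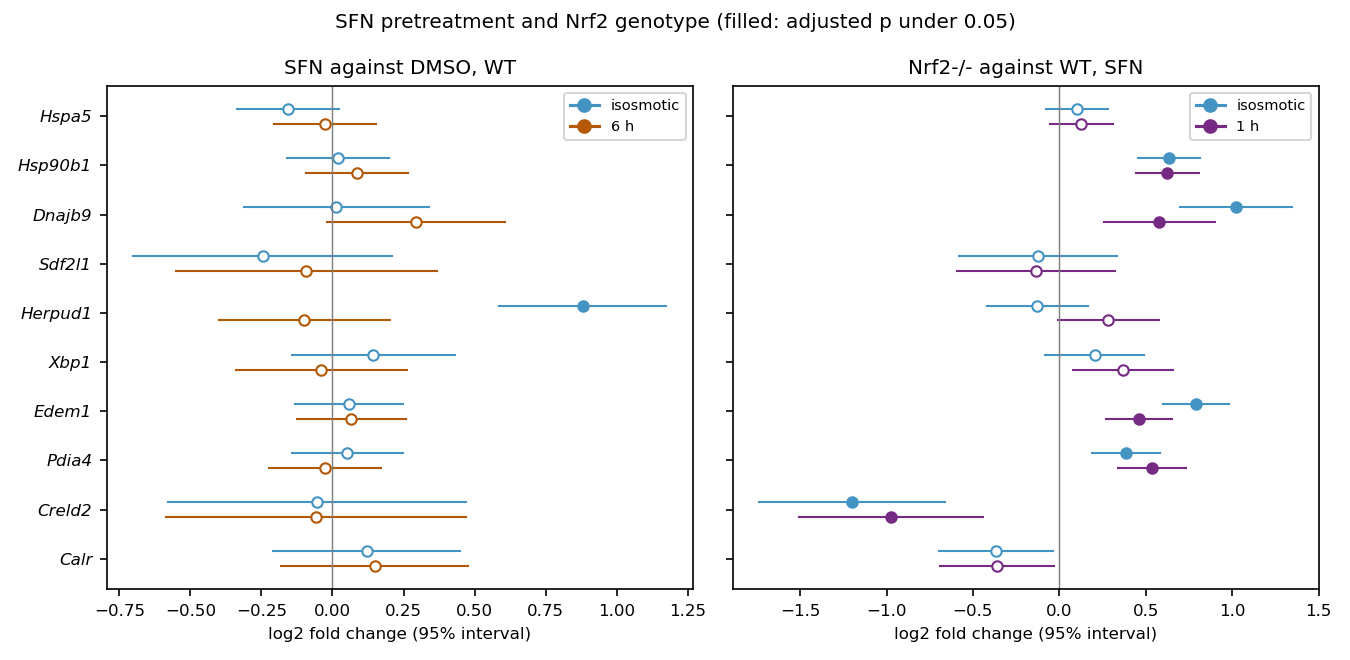
Points give the log2 difference of each gene for SFN against DMSO in WT cells (left; isosmotic blue, 6 h orange) and for Nrf2-/- against WT cells, both with SFN (right; isosmotic blue, 1 h purple), bars the 95% interval, and filled points an adjusted p under 0.05. Herpud1 at 0.88 is the only filled point on the left; on the right Hsp90b1, Dnajb9, Edem1, Pdia4 and Creld2 are filled under each condition.

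The UPR sensors and their close factors took different directions at 6 h. Atf6, the sensor cut in the Golgi, was 90.8 and 86.9 CPM in DMSO isosmotic medium and 209 and 200 CPM at 6 h (log2 fold change 1.20, adjusted p = 1.28e-05). In SFN it rose from 88.8 and 106 to 226 and 207 CPM (log2 1.15). Ern1, which encodes IRE1, was 45.4 and 39.6 CPM before and 59.3 and 50.1 CPM after in DMSO (log2 0.36, adjusted p = 0.0287), and 48.3 and 62.3 before and 56.2 and 53.3 CPM after in SFN (log2 -0.02, adjusted p = 0.937). Eif2ak3, which encodes PERK, fell at 6 h in SFN (log2 -0.51, adjusted p = 0.00198) and had a log2 change of -0.21 in DMSO (adjusted p = 0.143). Atf4, the factor favoured by PERK signalling, rose from 296 and 348 to 489 and 496 CPM in DMSO (log2 0.61, adjusted p = 0.00122). In SFN Atf4 was 437 and 414 CPM before and 495 and 520 CPM after (log2 0.25, adjusted p = 0.116). Ddit3, the proapoptotic factor CHOP, was 9.93 and 9.44 CPM before and 9.36 and 7.41 CPM after in DMSO (log2 -0.21, adjusted p = 0.558), and in SFN its log2 change was -0.64 (adjusted p = 0.0558). Ddit3 was higher in Nrf2-/- than in WT cells, by 0.80 in isosmotic medium (adjusted p = 0.0241) and 1.16 at 1 h (adjusted p = 0.00311). Nfe2l2 itself rose at 6 h in WT cells, by 0.90 in DMSO and 1.02 in SFN on the log2 scale.

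In all, 9 lists of related genes were counted beside the members, 8 of the ER and 1 of cytosolic heat shock proteins for comparison. At 1 h in DMSO 0 of 119 tested ER genes were called, beside 11.2% of all genes. This count depended on the fit. The 12 WT libraries gave 12 higher and 3 lower, where 14.3% of all genes were higher and 8.53% lower. The groups compared alone gave 9 and 5 (13.1% and 8.58%). Without the Nrf2-/- 1 h libraries it was 8 and 6 (12.8% and 9.33%), and other settings gave at most 3 and 2. Hspa1b (log2 2.03, adjusted p = 9.05e-07) and Hspa1a (1.95, adjusted p = 7.06e-06), the inducible cytosolic HSP70 genes, rose. They are near-identical copies, so the split of reads between them is uncertain. At 6 h in DMSO 41 of the 119 ER genes were called, 14 higher and 27 lower, a share of 34.5% beside the 45.9% of all genes. In SFN it was again 41, with 13 higher and 28 lower. The balance of directions depends on the scaling: total-count scaling gave 7 higher and 43 lower in DMSO, RLE size factors 20 and 18, DESeq2 24 and 18, the groups compared alone 32 and 29, and a minimum of 10 counts in every library 28 and 17. In SFN total counts gave 7 and 51, RLE size factors 19 and 25, DESeq2 20 and 25, and the minimum of 10 counts 25 and 20. Of 11 cytosolic heat shock genes 6 rose and 1 fell in DMSO at 6 h.

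For the list counts at 6 h in DMSO, the shares of all genes were 23.9% higher and 22% lower. Listed genes were not followed singly over the alternatives, and total-count scaling moved the median of all genes by -0.19. Small rises, such as those of Hyou1, Ern1, Calu and Sesn2, may thus depend on the scaling. Among lumenal chaperones and co-chaperones, 1 of 19 rose and 4 fell at 6 h in DMSO. Hyou1, a BiP-related chaperone, rose by 0.35 (adjusted p = 0.0345), while the co-chaperone Dnajc1 (-0.84), the BiP exchange factor Sil1 (-0.86) and the collagen chaperone Serpinh1 (-0.56) fell. Of 15 disulfide isomerases and oxidases 1 rose, P4hb (log2 0.43, adjusted p = 0.000824), and 3 fell, Txndc11 (-0.88), Creld1 (-0.64) and Txndc12 (-0.45). In ERAD 4 of 21 rose and 7 fell. Herpud2, the paralog of Herpud1, rose from 26.3 and 25.5 to 55.1 and 56.6 CPM (log2 1.11, adjusted p = 0.000199), opposite in sign to Herpud1, and Man1b1 rose by 0.50. Edem2, a relative of Edem1, fell from 35.4 and 39.5 to 15.4 and 20.1 CPM (log2 -1.08, adjusted p = 6.87e-05), and the conjugating enzyme Ube2j1 (-0.65) and Faf2 (-0.58) fell.

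Of 9 sensors and their proteases and factors 3 rose and 3 fell: with Atf6 and Ern1 rose Creb3l2 (1.13), while the related factor Creb3 (-1.18) and the proteases Mbtps1 (-0.53) and Mbtps2 (-0.66), which cut ATF6, fell. In the PERK and ATF4 list 3 of 8 rose in DMSO, Nupr1 from 13.7 and 13.2 to 406 and 449 CPM (log2 4.99), Atf4 and Sesn2 (0.40), and Trib3 (-2.11) fell. In SFN, where 24.7% of all genes rose and 22.9% fell, 2 of this list rose and 4 fell, among them Trib3 (-2.71), Chac1 (-1.73) and Sesn2 (-0.73). Of 23 translocon, signal peptidase and COPII genes 1 rose and 5 fell in DMSO, of 16 glycosylation genes 0 rose and 3 fell, and of 8 calcium-binding and pump genes 1 rose and 1 fell. Spcs3, of the signal peptidase (-0.85), and the COPII coat gene Sec24d (-0.70) fell, and Calu rose (0.38). With a minimum of 10 counts in every library, the translocon list had 4 higher and 2 lower and the glycosylation list 3 higher and 0 lower. The direction of these 2 lists thus turned with that filter.

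**Figure D5:**
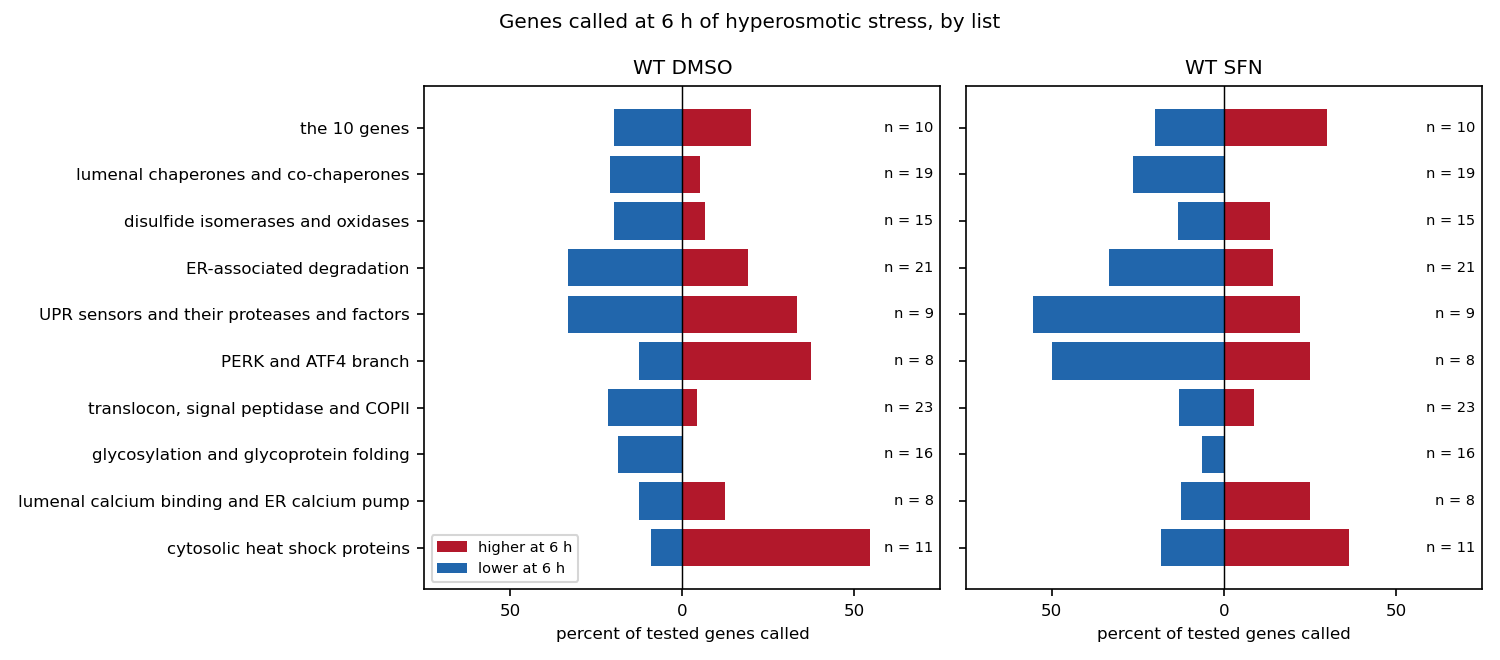
Bars show, for WT cells with DMSO (left) and SFN (right), the percent of tested genes of each list called higher (red, to the right) or lower (blue, to the left) at 6 h against isosmotic medium; n is the number of tested genes. The cytosolic heat shock list reaches farthest to the right in DMSO, with 6 of 11 genes, and most ER lists reach farther to the left than to the right, a balance over the 8 ER lists that turned in DMSO with RLE size factors, DESeq2, a minimum of 10 counts or the groups compared alone, and in SFN with a minimum of 10 counts.

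By edgeR over all 16 libraries SFN in isosmotic medium changed 4 of the 119 ER genes, all higher, a share of 3.36%. Of all genes 2.84% were called, 1.09% higher and 1.76% lower. Count and direction depended on the fit. The 12 WT libraries gave 20 higher and 9 lower, where 8.28% of all genes were higher and 6.88% lower. Without the Nrf2-/- 1 h libraries it was 17 and 11 (7.2% and 7.3%), and with DESeq2 7 and 1 (1.64% and 1.62%). The values below are from the fit of 16 libraries. Chac1 was 6.22 and 7.12 CPM with DMSO and 28.3 and 24.3 CPM with SFN (log2 1.98, adjusted p = 4.21e-05), Sesn2 rose by 1.08 and Trib3 by 0.76, 3 genes of the PERK and ATF4 list, and the oxidase Ero1lb rose by 0.69. In the cytosolic heat shock list 5 of 11 genes were higher, beside 1.09% of all genes, among them Hspa1b by 1.56, Hsph1 by 0.76 and Hspa1a by 1.43. Nrf2-/- cells differed from WT cells in 58 of 119 ER genes in isosmotic medium, 25 higher and 33 lower (48.7%). Of all genes 34.1% were called there, 15.7% higher and 18.4% lower. At 1 h 53 of the 119 differed, 25 higher and 28 lower (44.5%), beside 31.5% of all genes (15.3% higher and 16.2% lower). A fit of the groups compared alone gave only 5 higher and 4 lower at 1 h, where 4.6% of all genes were higher and 5.49% lower. In the PERK and ATF4 list 4 of 8 were higher and 0 lower in isosmotic medium, Asns from 133 and 145 to 429 and 406 CPM (log2 1.59, adjusted p = 5.05e-07), Trib3 (1.26), Sesn2 (0.49) and Ddit3. In ERAD 1 of 21 was higher, Derl1 (0.44), and 9 were lower, among them Man1b1 (-0.62), Aup1 (-0.60) and Syvn1 (-0.56). The chaperones Canx (0.59) and Hspa13 (0.70) were higher. The calcium-binding genes Rcn1 and Sel1l3 and the peptidyl-prolyl isomerase Fkbp11 were near 0 in Nrf2-/- cells: Rcn1 was 14.7 and 11.3 CPM in WT and 0 and 0.05 CPM in Nrf2-/- cells, Sel1l3 7.19 and 6.95 against 0 and 0 CPM, and Fkbp11 8.53 and 9.32 against 0.28 and 0.27 CPM.

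The genes whose log2 CPM followed the mean z-score of the 10 members most closely over the 16 libraries were Fkbp4 (Pearson r 0.89), H2-DMb1 and Cst6 (0.85), Dnaja1, Lap3, Mcfd2, Vopp1, Cox7a2l, Nars and Sars (0.84 to 0.82). That mean was 0.96 in Nrf2-/- 1 h replicate 1 and 0.14 in replicate 2, and -0.32 to 0.26 in the WT libraries. Much of the ranking can thus rest on 1 library. The r of the mean with single members ran from -0.37 for Creld2 to 0.66 for Hsp90b1. Because members moved apart, each member's own closest genes were also taken, chosen after the values were seen. They were Agbl3 for Dnajb9 (0.99), Blm for Xbp1 (0.99), Yars for Herpud1 (0.96), Rnf6 for Hsp90b1 (0.98), Alg13 for Edem1 (0.98), Eif2ak1 for Pdia4 (0.99), Pfdn5 for Creld2 (0.99), Srrt for Calr (0.95), Sae1 for Hspa5 (0.91) and Pdap1 for Sdf2l1 (0.91). These correlations share libraries and group means and describe the 16 libraries only.

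In GENCODE M21 (GRCm38, the build called mm10) the 10 genes are protein coding. Hspa5 lies on chr2:34771970-34777547, Hsp90b1 on chr10:86690209-86705509, Dnajb9 on chr12:44205559-44210326, Sdf2l1 on chr16:17130138-17132383 and Herpud1 on chr8:94386438-94395377. Xbp1 lies on chr11:5520659-5525893, Edem1 on chr6:108828641-108859356, Pdia4 on chr6:47796141-47813430, Creld2 on chr15:88819646-88826683 and Calr on chr8:84841850-84846934. Hsp90b1 shares 415 exonic bases with the pseudogene 1810014B01Rik on the other strand and 84 with Gm15344, and Dnajb9 and Pdia4 each share 14 with a microRNA gene. Hsp90b1 also holds the 133 bases of the microRNA gene Gm25745. Gm15344, Gm25745 and the microRNA gene at Pdia4 lie on the same strand as the member, so strand would not separate their reads. The pseudogene 1810014B01Rik and the microRNA gene at Dnajb9 lie on the other strand. Whether counting used strand is not given in the sources used here, so reads in the bases shared with them cannot be assigned either.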

How the data were processed

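Total RNA of 16 mIMCD3 libraries was sequenced by the authors; 1 label field names primary TEC as the RNA source, all others mIMCD3. The deposited files hold whole-number read counts per gene, not normalized, with 1 table per library. The submitters' processing notes name Bowtie2, SAMtools, featureCounts and mm10, while the study's methods name HISAT2; versions, annotation and strand setting are not given in the sources used here. Counts of 1 to 10 were even in 58.0 to 68.5% of cases, and whether mates were counted singly was not tested. Blank-name lines without counts (5 in 2 tables) were dropped.

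Counts were scaled by TMM, filtered with filterByExpr and tested with edgeR 4.0.16 (quasi-likelihood F-test, robust, 1 fit over 16 libraries, Benjamini-Hochberg adjusted p under 0.05) in R 4.3.3, for 12 pairwise comparisons and 3 interactions. SE and 95% intervals are of log2 fold changes. With 2 libraries a group, an exact permutation test cannot go below 0.333. The fit was tested on simulated data with the same spread for all genes and groups and few changed genes. There it missed some changes, mostly in genes of low counts, and 7 of 148 calls were false. The criteria for passing were replaced after a first run had failed them. Unequal spread between groups and change in many genes, as seen in these data, were not simulated. Alternatives included DESeq2 1.42.0, other scalings and filters, fewer libraries and each library left out; total-count scaling and the fit without Nrf2-/- 1 h libraries were chosen after seeing the data.

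The 10 genes, lists and markers were chosen with earlier results of these data known. Named genes were the members, Ern1, Eif2ak3, Atf6, Atf4, Ddit3, Nfe2l2, up to 3 called genes per list, comparison and direction with the smallest adjusted p, and the 10 genes of at least 50 mean counts most like the members' mean; others were chosen after their values were seen. A result withheld for evaluation is not reported here.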

Additional observations from a re-analysis of the deposited data

Results flagged for a closer look

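The change of Herpud1 at 6 h of hyperosmotic stress differed between SFN- and DMSO-treated cells, by an interaction of -0.98 on the log2 scale (edgeR's quasi-likelihood test, adjusted p = 0.0298). Its fall was larger with SFN, from a level that SFN had raised, and the levels at 6 h overlapped. The call was lost in several fits that left out 1 WT library, with values from -1.03 to -0.76. Listed genes were not followed singly over the alternatives. The PERK and ATF4 list held 2 genes with a called interaction at 6 h, Chac1 with -1.82 (adjusted p = 0.00471) and Sesn2 with -1.13 (adjusted p = 0.0069). Chac1 was at 28.3 and 24.3 CPM in isosmotic medium with SFN and at 6.93 and 8.94 CPM at 6 h, while with DMSO it was at 6.22 and 7.12 CPM and at 6.95 and 7.26 CPM. In the cytosolic heat shock list 4 genes were also called, Hspa1b with -1.68 (adjusted p = 0.000521), Hspa1a with -1.57 (adjusted p = 0.00346), Hsph1 with -0.74 (adjusted p = 0.0069) and Dnajb1 with -0.74 (adjusted p = 0.0249). At 1 h the interaction was called for Hspa1a, with -1.52 (adjusted p = 0.00669), and Hspa1b, with -1.21 (adjusted p = 0.00883). The other pathway genes and members had no called interaction of SFN and stress at an adjusted p of 0.05.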

How the results depend on the processing

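The calls for Dnajb9 and Xbp1 at 6 h, and for Herpud1 at 6 h with SFN and after SFN in isosmotic medium, held in 25 of 25 alternatives each; in isosmotic Nrf2-/- cells those of Hsp90b1, Dnajb9, Edem1 and Creld2 held in 24 of 24. Of the counts of called genes, 319 values lay within 1.5 times the reported count and 49 did not. At 1 h in DMSO the count of 0 became 1 with DESeq2, the 12 WT libraries or the groups compared alone. It was also 1 without the 2 Nrf2-/- 1 h libraries. All of these fits called 4.96 to 14.3% of all genes higher and 2.5 to 9.33% lower. At 1 h in SFN the count of 1 became 0 with a minimum of 10 counts, with total counts and with a replicate block. There 1.88 to 5.64% of all genes were higher and 2.5 to 3.92% lower. The count became 2 with DESeq2, the 12 WT libraries, the groups compared alone and without the 2 Nrf2-/- 1 h libraries. Those fits called 4.09 to 10.5% of all genes higher and 2.42 to 7.81% lower. With the groups compared alone, 6 h against 1 h in DMSO gave 7, where 32.8% of all genes were higher and 32.8% lower. In such fits SFN against DMSO at 1 h gave 4 (3.04% higher, 1.91% lower). Nrf2-/- against WT at 1 h gave 0 (4.6% higher, 5.49% lower). For 1 h of stress in Nrf2-/- cells, DESeq2 gave 1 (Hspa5, higher), beside 3.37% of all genes higher and 1.94% lower. Total counts gave 1 there (Edem1, lower), beside 4.15% higher and 3.87% lower. The cause was not tested.

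With 1 library left out, the counts ran from 0 to 1 at 1 h and 2 to 5 at 6 h in DMSO, from 2 to 5 for 6 h against 1 h in DMSO, from 0 to 2 at 1 h and 3 to 6 at 6 h in SFN, and from 4 to 8 for Nrf2-/- against WT at 1 h. They ran from 0 to 5 for 1 h of stress in Nrf2-/- cells, from 0 to 1 for the interaction of SFN with 6 h and from 0 to 2 for that of genotype with 1 h.

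No reported call turned its sign. Values that were not called did. On total counts, Hspa5 was -0.0558 at 6 h in DMSO and -0.0636 at 6 h against 1 h, where Calr was -0.0975. Edem1 at 6 h in DMSO was 0.0272 with RLE size factors, 0.0609 with a minimum of 10 counts and 0.0260 with DESeq2, and in SFN 0.0206, 0.0799 and 0.0185. With a library left out it ran from -0.136 to 0.00222 in DMSO and from -0.131 to 0.00648 in SFN. With a library left out, Sdf2l1 ran from -0.60 to 0.22 for Nrf2-/- against WT at 1 h and from -0.17 to 0.68 for 1 h of stress in Nrf2-/- cells, Creld2 there from -0.46 to 0.71 and Calr from -0.37 to 0.33 (-0.0538 on total counts). The interaction of genotype with 1 h ran from -0.47 to 0.70 for Creld2 and from -0.38 to 0.32 for Calr, which was -0.0177 with a minimum of 10 counts, -0.00658 with the replicate block and -0.0397 on total counts.

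Replicate numbers did not pair the libraries: the correlation of deviations from the group means exceeded 0.1 in 1 of 28 group pairs, with a median of -0.01. With the replicate block 0 members were called at 1 h in SFN (Dnajb9 adjusted p = 0.0546), and the 14 other counts lay within 1.5 times the reported ones. A minimum of 10 counts moved the median of all genes at 6 h by 0.12 in DMSO and 0.13 in SFN. Total counts moved the share of higher among called genes from 48.1 to 34.3% (DMSO) and from 49 to 36% (SFN) for 6 h against 1 h, and from 38.2 to 52.1% for SFN in isosmotic medium. With a minimum of 10 counts the share of higher calls at 1 h went from 63.4 to 41.9% in DMSO, from 62.4 to 43% in SFN and from 60.8 to 23.7% in Nrf2-/- cells.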
